A study of Homo sapiens with 24 samples.

Results

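The Wnt3a response left after knockdown of beta-catenin was taken from 6 of the 24 arrays of the series, all of HepaRG cells, a human liver progenitor line established from a hepatocellular carcinoma. The members were chosen by title alone: 3 arrays of cells transfected with siRNA against CTNNB1, the gene for beta-catenin, and treated with Wnt3a, and 3 arrays of cells with the same siRNA and no Wnt3a. RNA was measured on one-colour Agilent arrays. Cells received 80 pmol of siRNA by electroporation and then serum-free medium for 72 h, with recombinant Wnt3a at 200 ng/ml or without it. The question put to these arrays was which RNAs still differ with Wnt3a when its main intracellular relay is depleted. Both groups went through electroporation and received the same siRNA, so by design they differ in Wnt3a, and they differ in array row as well. The model has limits. It is a single cell line at a single dose and time point, beta-catenin protein was not measured on these arrays, and the knockdown left some CTNNB1 RNA.

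Wnt ligands bind Frizzled receptors and LRP co-receptors at the cell surface. In the canonical branch this stops the destruction of beta-catenin, which then enters the nucleus and acts through TCF and LEF factors on genes that include the pathway's own inhibitors. Other branches act through small GTPases, calcium and kinases without beta-catenin, and gamma-catenin, encoded by JUP, can take its place in cell junctions.

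Levels are log2 signals relative to the 75th percentile of the same array, given for replicates 1, 2 and 3 in that order, and a value at the floor of -6.13 could not be told from background. Of the probes, 58.3% to 63.3% were well above background on the 6 arrays, and replicates of a group had Pearson's r of 0.991 to 0.995 across genes. The median standard deviation of a gene was 0.12 without and 0.15 with Wnt3a (n = 3 each), and the number of arrays limits the precision. CTNNB1 stood at 0.26, 0.35 and 0.52 without Wnt3a and at 0.33, 0.53 and 0.77 with it. The ranges overlapped, and the difference of 0.17 did not pass the test (adjusted p 0.854 in limma, higher in 3 of 3 same-numbered pairs). JUP was at -0.56, -0.66 and -0.73 without Wnt3a and at -0.88, -0.88 and -0.75 with it, a difference of -0.19 (adjusted p 0.93 in limma, lower in 3 of 3 pairs) with groups that did not overlap. Its difference was 0.56 in cells with control siRNA, and the test between the siRNAs gave an adjusted p of 1 in limma. With Wnt3a present, CTNNB1 differed by -3.02 between beta-catenin siRNA and control siRNA.

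The labelled cell type was checked against markers. All 6 hepatocyte markers looked at (ALB, APOA1, APOB, TF, SERPINA1 and HNF4A) were well above background on each of the 6 arrays. Albumin, the main plasma protein made by hepatocytes, was at 8.68, 8.24 and 8.64 without Wnt3a and at 7.29, 7.85 and 8.25 with it, with 1 array of each group overlapping the other. Of the biliary and progenitor markers, KRT19, KRT7, SOX9 and CD24 were above background on the 6 arrays and EPCAM on none. KRT19, a keratin of bile duct cells, lay between 8.04 and 8.22. Of 8 markers each for other cell types, 5 endothelial ones (KDR among them, at 1.43 to 1.79), 4 blood ones (with CD79A at 1.31 to 2.06) and 4 stellate or muscle ones (with DES at -1.0 to -0.53) were above background on the 6 arrays. STAB2, LYVE1, CD163, HBB, NGFR and RELN were above background on none of the 6 arrays.

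With Wnt3a after beta-catenin siRNA, 10 of 24648 genes passed limma at an adjusted p under 0.05. Of these, 9 were higher (0.0365% of the genes tested) and 1 was lower (0.00406%). The thresholds stated for the study ask for a fold change over 1.5 or under 0.7 and a p under 0.01. With the limma p taken here before adjustment, 314 genes passed them, 111 higher (0.45%) and 203 lower (0.824%). Of those, 235 have a symbol, 81 higher and 154 lower. At an unadjusted p under 0.05 the count was 2575 (10.4%). The median difference over all genes tested was 0.03, and 57.5% of them were higher with Wnt3a. The fit does not use the pairing of arrays by slide. With the replicate as a block in limma, 46 genes passed at an adjusted p under 0.05, 30 higher and 16 lower, the 10 among them. The groups did not overlap for 2912 genes that were higher with Wnt3a (11.8% of those tested) and for 2557 that were lower (10.4%).

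Single arrays moved these counts. The count of 10 became 1 without replicate 1 of every condition, 0 without replicate 2 (limma, 1585 at an unadjusted p under 0.05) and 96 without replicate 3. Of the 1 and the 96, 0 and 8 were among the 10. Leaving out only the array without Wnt3a gave 0 for replicate 1 (limma, 1591 at an unadjusted p under 0.05), 8 for replicate 2 and 1 for replicate 3. Leaving out only the Wnt3a array gave 2, 0 (limma, 1956 at an unadjusted p under 0.05) and 3. The count of 314 became 85 (54 higher and 31 lower), 172 (72 and 100) and 477 (152 and 325) without replicates 1, 2 and 3 of every condition. Of these, 52, 132 and 221 were among the 314. It became 162 (80 and 82) without the untreated array of replicate 1 and 176 (100 and 76) without the Wnt3a array of replicate 1. In each slide the Wnt3a arrays took the second row and the others the first, so Wnt3a and the row cannot be told apart.

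**Figure D1:**
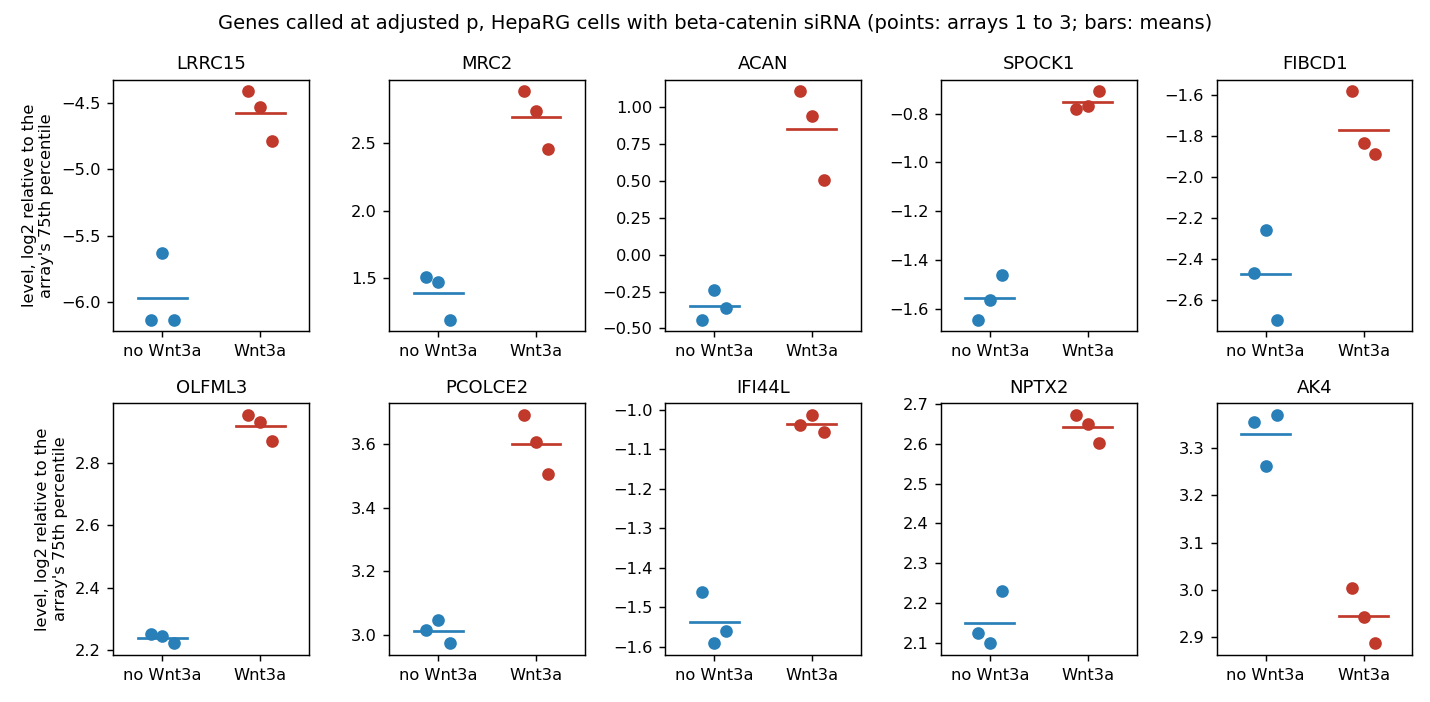
Levels of the 10 genes past the adjusted threshold on the 6 arrays (log2 relative to the 75th percentile of the array), with points for single arrays and bars for group means, by gene and treatment. For each gene the 3 Wnt3a arrays lie apart from the 3 arrays without it, which the choice by p favours. AK4 is the one that is lower.

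Of the 10 genes past the adjusted threshold, 8 also passed it in the same direction after control siRNA and 7 without transfection. Over all genes tested, 2.11% and 5.6% passed it there in either direction. Of the 9 rises at an adjusted p under 0.05, 2 (ACAN and SPOCK1) are in the list of matrix glycoproteins and proteoglycans given below. That list holds 41 of the 24648 genes tested. MRC2, a receptor that takes up collagen fragments, was at 1.51, 1.48 and 1.19 without Wnt3a and at 2.88, 2.74 and 2.45 with it. It rose by 1.30 (adjusted p 0.0499 in limma, 3 of 3 pairs), and the lowest Wnt3a array lay above the highest untreated one. The 15 rises and 15 falls named first were picked among genes that moved alike in all 3 pairs. A choice by a small p also favours groups that lie apart, so for these genes neither statement adds support. ACAN, the cartilage proteoglycan aggrecan, was at -0.44, -0.24 and -0.36 without Wnt3a and at 1.11, 0.94 and 0.51 with it. The rise was 1.20 (adjusted p 0.0215 in limma, 3 of 3 pairs), again with no overlap. After control siRNA the ACAN difference was 0.39, and the test between the siRNAs gave 0.81 (adjusted p 0.988 in limma). SPOCK1, a secreted proteoglycan, was at -1.65, -1.56 and -1.46 and then at -0.78, -0.77 and -0.71, and rose by 0.81 (adjusted p 0.0266 in limma, 3 of 3 pairs). OLFML3, a secreted glycoprotein of the olfactomedin family, was at 2.25, 2.25 and 2.22 and then at 2.95, 2.93 and 2.87, a rise of 0.68 (adjusted p 0.0215 in limma, 3 of 3 pairs). PCOLCE2, which aids the trimming of procollagen, was at 3.02, 3.05 and 2.97 and then at 3.69, 3.61 and 3.51, a rise of 0.59 (adjusted p 0.0472 in limma, 3 of 3 pairs). In these 3 genes too every Wnt3a array was above every untreated one. After control siRNA the differences of MRC2, SPOCK1, OLFML3 and PCOLCE2 were 1.34, 1.06, 0.68 and 0.51.

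LRRC15, a membrane protein known from activated fibroblasts, was at -6.13, -5.63 and -6.13 without Wnt3a, where 1 of 3 arrays measured it above background, and at -4.41, -4.53 and -4.79 with it. The difference of 1.39 passed (adjusted p 0.0497 in limma, 3 of 3 pairs). With 2 of the 3 untreated arrays at the floor its size is not exact, and it was 0.42 with normexp background correction. FIBCD1, a membrane receptor for acetylated sugars, was at -2.47, -2.26 and -2.70 and then at -1.58, -1.84 and -1.89. It rose by 0.71 (adjusted p 0.0499 in limma, 3 of 3 pairs), and its other probe differed by 0.21, so that the mean of probes gave 0.46. The groups of both genes were apart. After control siRNA the differences of LRRC15 and FIBCD1 were 2.26 and 0.56.

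NPTX2, a secreted pentraxin known from synapses, was at 2.12, 2.10 and 2.23 without Wnt3a and at 2.67, 2.65 and 2.60 with it. It rose by 0.49 with the smallest adjusted p of the comparison (0.00618 in limma, 3 of 3 pairs), and no arrays overlapped. Its differences in the control siRNA cells and the cells without transfection were -0.18 and -0.25, from 2.04, 1.98 and 2.08 to 1.82, 1.83 and 1.92 in the former. The response after beta-catenin siRNA exceeded that after control siRNA by 0.67 (adjusted p 0.0056 in limma) and that without transfection by 0.74 (adjusted p 0.0011 in limma). Without replicate 1 of every condition the adjusted p of the former test was 1 in limma and without replicate 2 it was 0.736, the range over the 21 alternatives being 0.00237 to 1, and with spike-in scaling its difference was 0.38. IFI44L, an interferon-inducible gene, was at -1.46, -1.59 and -1.56 and then at -1.04, -1.01 and -1.06, a rise of 0.50 (adjusted p 0.0308 in limma, 3 of 3 pairs). AK4, an adenylate kinase of the mitochondrion, was the only fall, from 3.36, 3.26 and 3.37 to 3.00, 2.94 and 2.89. It fell by 0.39 (adjusted p 0.0499 in limma, 3 of 3 pairs), and its other probes differed by -0.23 and -0.14, so that the mean of probes gave -0.25. The groups of IFI44L and AK4 were apart as well, and their differences after control siRNA were 0.36 and -0.28. Of the 10 calls, 0 kept an adjusted p under 0.05 in limma in each of the 21 alternatives, among them the fits without replicate 2 of every condition, without the untreated array of replicate 1 and without the Wnt3a array of replicate 2, which called 0 genes at all. All 10 kept their direction in each alternative that gave them a value, but with groups apart, leaving out arrays could not change the sign.

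Rises at the study thresholds are given by role. Members of the matrix lists come first, with VCAN of the Wnt feedback list beside them, and SCG5 of the protease list is given later. Periostin (POSTN), a matrix protein of fibroblasts, was at 3.55, 3.61 and 3.30 without Wnt3a and at 5.39, 5.15 and 4.78 with it, 3.08-fold higher (log2 1.62, adjusted p 0.128 in limma, 3 of 3 pairs). Its differences after control siRNA and without transfection were 1.16 and 0.93. COL5A1, a fibrillar collagen chain, was at 5.59, 5.72 and 5.51 and then at 6.64, 6.53 and 6.45, a difference of 0.93 (adjusted p 0.0938 in limma, 3 of 3 pairs) beside 0.99 after control siRNA. Fibronectin (FN1) was at 1.03, 1.04 and 0.96 and then at 1.71, 1.67 and 1.56, a difference of 0.64 beside 1.03. For these 3 genes each Wnt3a array lay above each untreated one. The proteases followed. MMP2, which cleaves collagen of basement membranes, was at -1.69, -1.60 and -1.52 and then at -0.66, -0.56 and -0.81, a difference of 0.93. MMP9 was at -2.90, -2.97 and -2.96 and then at -1.99, -2.20 and -2.23, a difference of 0.80. FAP, a serine protease of activated fibroblasts, was at -3.75, -3.68 and -3.84 and then at -2.39, -2.42 and -2.58, a difference of 1.30 (0.81 with normexp) beside 1.69 after control siRNA. The ranges of all 3 were apart. COL4A1 (0.71), COL6A2 (0.70, but 0.35 with normexp), COL13A1 (0.88, but 0.52 with normexp), FBN1 (0.76), NID1 (0.60), VCAN (0.64) and the urokinase receptor PLAUR (0.72) passed the study thresholds upward too, and none of their groups overlapped. The other COL6A2 probe differed by 0.56 and did not pass. With the replicate as a block, MMP2, FBN1 and NID1 had adjusted p of 0.0389, 0.0268 and 0.0295 in limma, higher in 3 of 3 pairs. Over the alternatives their adjusted p in limma ranged from 0.0389, 0.0268 and 0.00391 to 1.

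Other rises at the study thresholds included KRT14, a keratin of basal epithelium, at -5.03, -5.53 and -5.22 without and -3.46, -3.12 and -3.79 with Wnt3a (1.80), although its other 2 probes differed by 0.10 and 0. MYCN, a growth-promoting transcription factor, was at -5.90, -5.82 and -6.13, with 2 of 3 arrays above background, and at -4.08, -4.61 and -4.89 with Wnt3a (1.42, beside 1.83 after control siRNA). With normexp background correction the MYCN difference was 0.49, and KRT14 gave 0.63 with the mean of its probes. SCG5, a chaperone of a prohormone convertase, was at -0.50, -0.12 and -0.32 and then at 1.29, 0.75 and 0.43 (1.13, beside 2.14). In these 3 the groups were apart. The cell cycle genes CCNE2, which drives entry into S phase, and CDC6, which loads the replicative helicase, were at -0.70, -0.60 and -0.82 and at -4.02, -4.22 and -4.51 without Wnt3a. With it they were at 0.35, 0.03 and -0.30 and at -3.24, -3.54 and -3.73. Every Wnt3a array was higher, by 0.73 and 0.75 on average (0.49 for CDC6 with normexp), where control siRNA gave 0.05 and -0.07 (adjusted p 1 in limma for both tests between the siRNAs). RHBDL3, a protein of the rhomboid family (1.18, and 0.41 with normexp), the endothelial adhesion molecule PECAM1 (0.90, but 0.42 with normexp and 0.59 without the untreated array of replicate 3), the ectonucleotidase NT5E (0.82) and the BMP antagonist NOG (0.60, but 0.38 with normexp) passed upward as well. The other probes of CCNE2 and NT5E differed by 0.54 and 0.48 and did not pass the study thresholds.

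The falls at the study thresholds numbered 203 beside 111 rises, at uneven limits of fold, and at a fold change of 1.5 both ways the counts were 168 and 111. By the study thresholds that balance turned without replicate 1 of every condition (31 falls and 54 rises) and without its Wnt3a array alone (76 and 100). It was 82 and 80 without its untreated array alone. Without the Wnt3a array of replicates 2 and 3 it was 122 and 117, and 276 and 178. Without the untreated array of replicate 3 it was 151 and 64. S100P, a calcium-binding protein, was at -1.69, -1.69 and -1.76 without Wnt3a and at -2.90, -3.21 and -3.10 with it, and fell by 1.36 (adjusted p 0.13 in limma, 3 of 3 pairs), beside -1.64 after control siRNA, and by 0.86 with normexp. PSCA, a surface antigen on a lipid anchor, was at 2.40, 2.36 and 2.36 and then at 0.85, 1.18 and 1.61, a difference of -1.16 beside -1.81. CHI3L1, a secreted chitinase-like protein, was at 3.14, 2.69 and 2.97 and then at 1.1, 1.61 and 2.04 (-1.35), beside -0.17 after control siRNA and -0.12 without transfection, and the test between the siRNAs gave an adjusted p of 1 in limma. All 3 genes had Wnt3a arrays below every untreated array. E-cadherin (CDH1), which joins epithelial cells, was at -1.28, -1.94 and -1.40 and then at -3.22, -2.65 and -2.10, a difference of -1.12 (adjusted p 0.297 in limma, 3 of 3 pairs) beside -0.54, and it was -0.70 without replicate 1 of every condition. WNT11, a ligand of the branches without beta-catenin, was at -0.85, -1.05 and -0.84 and then at -2.02, -1.76 and -1.40, a difference of -0.81 beside -0.98. The groups of both were apart.

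CYP4B1, a cytochrome P450, was at -0.43, -0.88 and -0.29 and then at -2.54, -2.03 and -1.59 (-1.52). GLDC, which breaks down glycine, was at 0.20, -0.42 and 0.04 and then at -1.73, -1.33 and -1.07 (-1.32). No array of these 2 genes crossed into the other group. BCO2 (-1.29, and -0.84 without the untreated array of replicate 2) and PLIN5 (-1.07, and -0.57 with normexp), which cleaves carotenoids and coats lipid droplets respectively, and SLC27A2, which activates long fatty acids (-0.55), were lower too. DHCR7, the last enzyme of cholesterol synthesis, was at 5.36, 5.16 and 5.23 without and 4.53, 4.72 and 4.79 with Wnt3a (-0.57). Falls also passed for FAM153A (-1.39), ANKRD2 (-1.37), CPLX1 (-1.36), GRM3 (-1.35), SPP1 (-0.69), IGFBP2 (-0.62), SOX9 (-0.61), IL1B (-0.61), NUAK2 (-0.58) and NRG2 (-0.54). With normexp, differences shrank to -0.77 for FAM153A, -0.63 for CPLX1, -0.48 for GRM3, -0.21 for SOX9, -0.11 for IL1B and -0.27 for NRG2. Some ended at background. SLC26A9, a chloride transporter, was at least 2.54-fold lower (adjusted p 0.186 in limma), TPPP2 at least 2.41-fold lower (adjusted p 0.28 in limma) and EYA4, a transcriptional co-activator, at least 2.12-fold lower (adjusted p 0.296 in limma), each in 3 of 3 pairs and above background on none of the Wnt3a arrays. The pseudogene GSTA7P (-1.30, but -0.37 with normexp and -0.86 without replicate 1 of every condition) was above background on 1 of 3 Wnt3a arrays. The least folds hold only for the floor used here: with normexp the differences were -0.33 for SLC26A9, -0.33 for EYA4 and -0.30 for TPPP2. The TPPP2 difference was -0.83 without replicate 1 of every condition.

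Of the 59 named genes that passed either threshold, all 59 kept their direction in each of the 21 alternatives that gave them a value, and POSTN, S100P and MMP2 kept their call in all of them. Where the groups were apart, leaving out arrays could not change the sign. The replicate block and the fits to only the arrays compared leave the differences nearly as they were. The kept direction therefore adds little. Without replicates 1, 2 and 3 of every condition, 51, 37 and 14 of the 59 lost the call. Without the untreated array of replicates 1, 2 and 3 it was 34, 16 and 33, and without the Wnt3a array 39, 28 and 15.

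The same response was then set beside that of cells with control siRNA and of cells that were not transfected, each from 3 arrays with and 3 without Wnt3a. The 3 comparisons share no array, but they share slides and array positions. Cells that were not transfected differ in transfection as well as in the knockdown, and these cannot be told apart there. At an adjusted p under 0.05, limma called 520 genes after control siRNA (2.11%) and 1381 without transfection (5.6%). By the study thresholds the counts were 679 (2.75%) and 1090 (4.42%). With replicates or single arrays left out, limma called 4 to 574 genes at the adjusted threshold after control siRNA and 6 to 6343 without transfection, and the counts by the study thresholds were 381 to 674 and 222 to 2807. Over all 21 alternatives the adjusted counts in limma were 4 to 1328 and 0 to 6343. Those by the study thresholds were 381 to 849 and 148 to 2807. So the gene sets used below depend on the processing and on which replicates are kept. Across genes, which are not independent replicates, Pearson's r of the log2 differences was 0.48 between beta-catenin siRNA and control siRNA, 0.59 between beta-catenin siRNA and no transfection, and 0.57 between the other two.

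**Figure D2:**
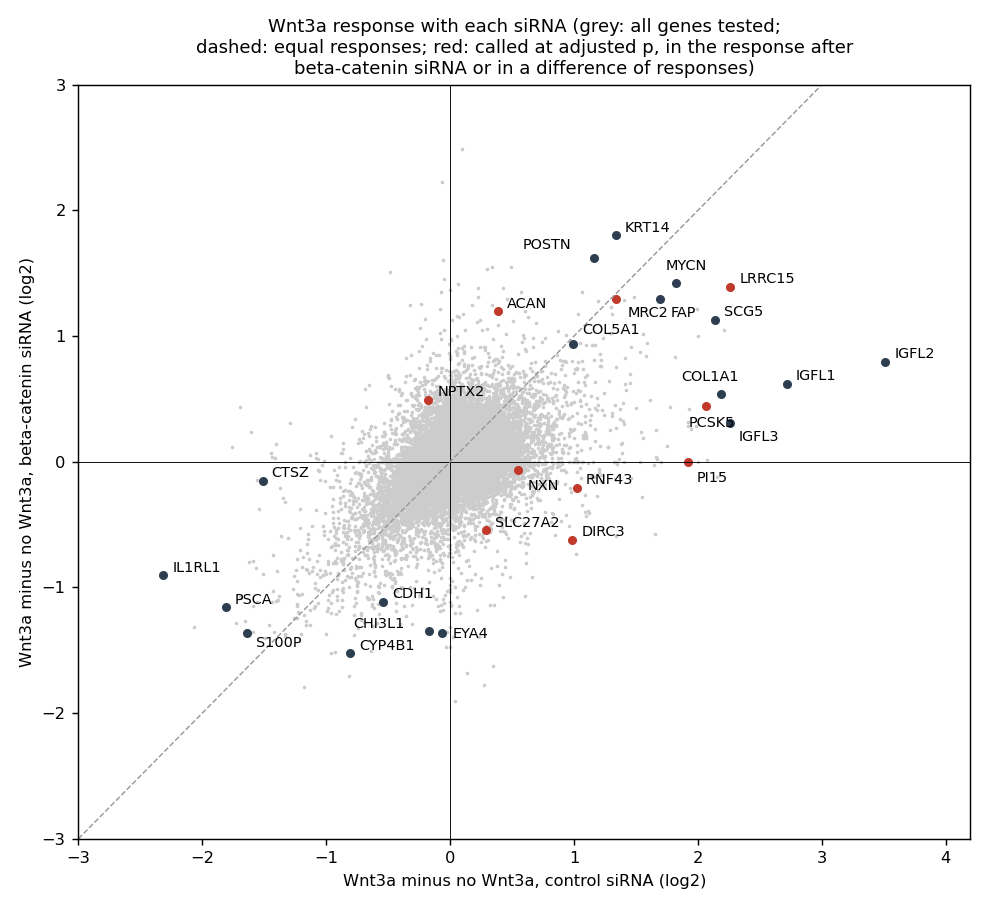
Log2 difference with Wnt3a after control siRNA (x axis) against that after beta-catenin siRNA (y axis), a point for each gene tested, with some named genes labelled, in red where they passed an adjusted threshold. Pearson's r across genes was 0.48, and IGFL2 lies at 3.51 on the x axis and 0.80 on the y axis. IGFL2 was named for its large rise without the knockdown, and that choice draws its x value upward.

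For the 520 genes called after control siRNA, the median difference in the direction of the call was 0.61 there, 0.45 without transfection and 0.26 after beta-catenin siRNA. The first value is drawn upward by the choice of genes, so the other two comparisons, which did not choose them, are the ones to set side by side. The difference was smaller after beta-catenin siRNA than without transfection for 412 of the 520. Of the 520, 467 (89.8%) went the same way after beta-catenin siRNA and 509 (97.9%) without transfection. Higher genes had medians of 0.24 and 0.59 in those comparisons and lower genes of -0.27 and -0.36. The 1381 genes called without transfection had medians of 0.55 there, 0.31 after control siRNA and 0.25 after beta-catenin siRNA, and the difference was smaller after beta-catenin siRNA than after control siRNA for 851 of the 1381. Of the 1381, 1297 (93.9%) kept the direction after beta-catenin siRNA and 1302 (94.3%) after control siRNA. Their higher genes had medians of 0.21 and 0.28, and their lower genes of -0.29 and -0.33. Over all genes tested the median after beta-catenin siRNA was 0.03.

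By the study thresholds, 128 of the 679 genes called after control siRNA (18.9%) passed in the same direction after beta-catenin siRNA, and 161 of the 1090 called without transfection (14.8%). Of all genes tested, 0.45% rose and 0.824% fell at these thresholds after beta-catenin siRNA. Counted from the other side, the 128 and 161 are 40.8% and 51.3% of the 314. Of all genes tested, 2.75% were called after control siRNA and 4.42% without transfection. Of the 314, 284 went the same way after control siRNA and 292 without transfection, and 122 were called in neither. The difference was larger than after control siRNA for 224 of them, a count that the choice of genes raises, and the test between the siRNAs called 1 of the 314 (DIRC3).

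Whether the response differed between the siRNAs was tested gene by gene. The interaction test in limma called 4 genes against control siRNA (0.0162% of those tested, 823 at an unadjusted p under 0.05) and 11 against no transfection (0.0446%, 868 at an unadjusted p under 0.05). The 4 became 1, 0 (limma, 518 at an unadjusted p under 0.05) and 11 without replicates 1, 2 and 3 of every condition. Of the 1 and the 11, 0 and 2 were among the 4, which are the calls meant next. They became 2 without the untreated array of replicate 1 or 3 and 2 without the Wnt3a array of replicate 2 or 3. The 11 against no transfection became 1, which was not among the 11, and 0 (limma, 379 at an unadjusted p under 0.05) without replicates 1 and 2 of every condition. Without the untreated array of replicates 1, 2 and 3 they became 3, 5 and 3, and without the Wnt3a array of replicates 1 and 2 they became 6 and 5.

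RNF43, a ubiquitin ligase that removes Frizzled receptors from the membrane, was at 0.33, 0.24 and 0.32 without Wnt3a and at -0.15, 0.12 and 0.30 with it after beta-catenin siRNA, where the groups overlapped. After control siRNA it was at 1.00, 1.08 and 0.80 and then at 1.92, 1.92 and 2.12, with no overlap. The differences were -0.21 (between -0.31 and -0.07 with replicates or single arrays left out) and 1.02. The test between them gave -1.23 (adjusted p 0.00129 in limma). Leaving out replicate 1 of every condition gave an adjusted p of 0.331 in limma and leaving out replicate 2 gave 0.736, in a range of 0.000319 to 0.736. DIRC3, a long noncoding RNA, was at -5.33, -5.83 and -5.37 and then at the floor on all 3 Wnt3a arrays, at least 1.27-fold lower with this floor (adjusted p 0.242 in limma, 3 of 3 pairs), while it was higher with Wnt3a by 0.99 after control siRNA. The test passed (adjusted p 0.0288 in limma), but it sets values at the floor against measured ones and gives no exact size. With normexp the DIRC3 difference after beta-catenin siRNA was -0.07 and the difference between the siRNAs -0.32. For DIRC3, leaving out replicates 1, 2 and 3 of every condition gave an adjusted p of 1, 0.736 and 0.392 in limma, and leaving out single arrays gave 0.0729 to 0.161 except for the untreated array of replicate 2, without which the call stayed (range 0.00472 to 1).

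Against no transfection the test also called PCSK5, a convertase that activates growth factors, and NXN, which binds the Wnt relay protein Dishevelled. This test changes transfection together with the knockdown, so these cannot be told apart. Against control siRNA neither gene was called, nor were SLC27A2 and PI15, given next. PCSK5 was at 2.57, 2.57 and 2.54 without Wnt3a and at 2.84, 3.07 and 3.11 with it, groups apart, a difference of 0.45 (0.28 with the mean of probes) beside 2.07 after control siRNA and 2.36 without transfection (test against the last -1.91, adjusted p 0.0369 in limma). NXN was at 0.61, 0.54 and 0.64 and then at 0.67, 0.46 and 0.46, with overlap, a difference of -0.07 beside 0.55 and 0.83 (-0.89, adjusted p 0.0139 in limma). SLC27A2 went from 0.13, -0.09 and -0.01 to -0.64, -0.43 and -0.54, groups apart, where the cells without transfection had a difference of 0.59 (-1.14, adjusted p 0.00679 in limma). PI15, a secreted peptidase inhibitor, was at the floor on all 6 arrays, so its response after beta-catenin siRNA was not measured. After control siRNA its difference lay between 1.15 and 2.25 over the alternatives. Its test (adjusted p 0.0166 in limma) sets the difference without transfection against that floor and does not give the size of a difference between responses. RNF43 and NPTX2 passed this test too, with -0.94 (adjusted p 0.0139 in limma) and 0.74. Without replicate 1 or replicate 2 of every condition the adjusted p of each of these 6 genes in limma was 1, at the top of their ranges, which began at 0.00778 for PCSK5, 0.0102 for NXN, 0.00507 for SLC27A2, 0.0164 for PI15, 0.0042 for RNF43 and 0.000595 for NPTX2. Leaving out any 1 of the 6 arrays ended the PCSK5 call (0.0693 to 0.144). Leaving out an untreated array of replicate 1 or 3 ended those of NXN, PI15 and RNF43 (0.0611 and 0.0525 for each), leaving out the Wnt3a array of replicate 2 ended those of NXN and PI15 (0.0565 for both), and PI15 also lost it without the untreated array of replicate 2 (0.0617) or the Wnt3a array of replicate 1 (0.0529). Without replicate 3 of every condition NXN, SLC27A2 and PI15 gave 0.071, 0.0658 and 0.0658 in limma.

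Some of the responses that were largest without the knockdown did not pass the interaction test. That choice of genes draws their values without the knockdown upward, but not those after beta-catenin siRNA. IGFL2, a secreted protein of the IGF-like family, was at -2.60, -2.59 and -2.64 without Wnt3a and at -1.73, -1.83 and -1.87 with it after beta-catenin siRNA. After control siRNA it was at 1.49, 2.10 and 0.05 and then at 4.51, 4.79 and 4.88. The groups were apart in both, and the differences were 0.80 and 3.51 (adjusted p 0.592 in limma for the test between them). IGFL1 had differences of 0.62 (0.30 with normexp and 0.28 without replicate 3 of every condition) and 2.72 (adjusted p 1 in limma for the test), and IGFL3 of 0.31 (0.08 without the untreated array of replicate 3) and 2.26 (adjusted p 0.614 in limma for the test). COL1A1, a chain of type I collagen, was at -0.27, -0.26 and -0.09 and then at 0.35, 0.20 and 0.45 after beta-catenin siRNA. After control siRNA it went from -0.23, -0.15 and -0.79 to 1.65, 1.94 and 1.81. The groups were apart in both, with differences of 0.54 and 2.19 (adjusted p 0.712 in limma for the test). AXIN2, TCF7, LEF1 and MMP7, chosen after their values were seen, had differences of -0.26, 0.47, 0.27 and -0.28 after beta-catenin siRNA and of 0.60, 1.40, 0.61 and 1.55 after control siRNA, and the tests between the siRNAs gave adjusted p of 0.0519, 1, 1 and 0.165 in limma.

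**Figure D3:**
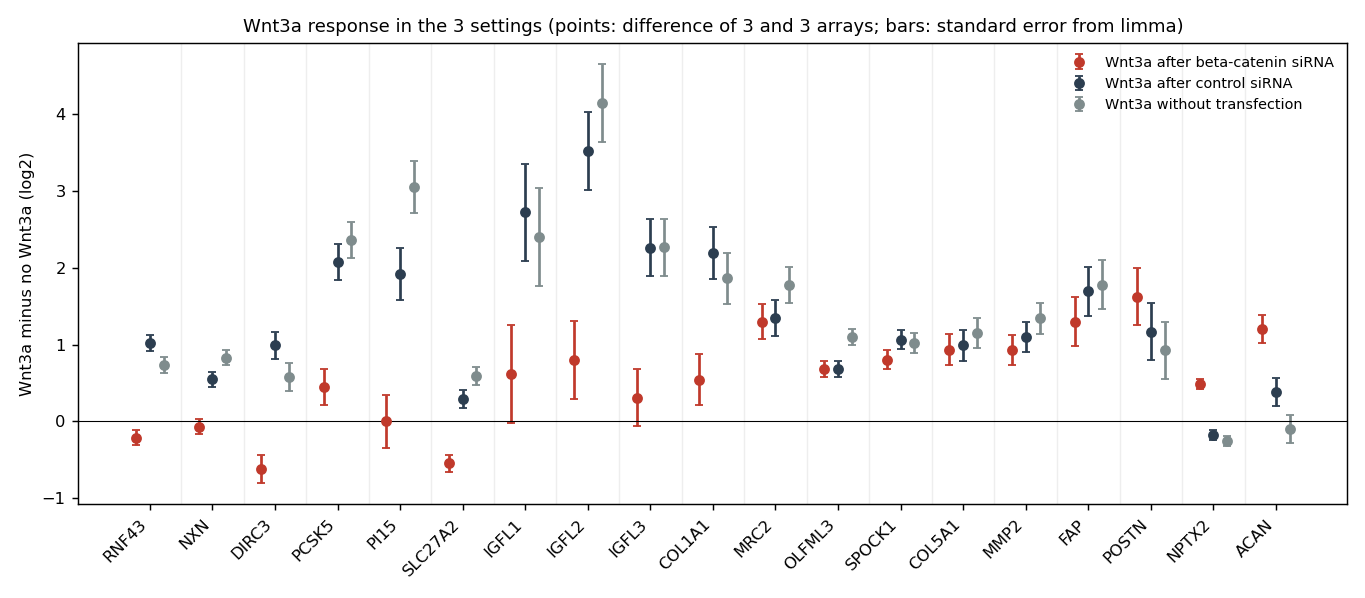
Log2 difference with Wnt3a for named genes in the 3 comparisons (beta-catenin siRNA, control siRNA and no transfection, 3 against 3 arrays each), with points for the difference of means and bars for its standard error in limma. RNF43 stands at -0.21, 1.02 and 0.73 in that order, and NPTX2 at 0.49, -0.18 and -0.25.

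Gene lists were drawn up by role from textbook knowledge, with earlier results of these data known. Their counts beside all genes tested are therefore descriptions. Of the 19 Wnt feedback and target genes tested, 1 rose at the study thresholds (VCAN, beside 0.45% of all genes tested) and 18 did not pass. Their median was 0.00, beside 0.03 over all genes tested and -0.13 with spike-in scaling, and it was 0.27 after control siRNA. In the interaction test, 1 passed at an adjusted p under 0.05 and 6 at an unadjusted p under 0.05 (0.0162% and 3.34% of all genes tested did). All 6 had the smaller difference after beta-catenin siRNA. Among them NKD1 was at the floor on all 6 arrays of that comparison, so its response there was not measured. With spike-in scaling the count at an unadjusted p under 0.05 was 4. Among 9 Wnt ligands WNT11 fell (0.824% of all genes tested did) and 8 did not pass (median 0.04). In limma 0 passed of 16 Wnt receptors (median -0.03, 5 at an unadjusted p under 0.05), 7 secreted inhibitors (0.14 and 1), 25 relay proteins (0.03 and 0) and 25 members of the planar polarity and calcium branch (0.07 and 2), where 10.4% of all genes tested were under 0.05. The median of the secreted inhibitors lay between -0.05 and 0.31 over the alternatives. RYK, one of the receptors, was at 2.47, 2.55 and 2.52 and then at 2.70, 2.71 and 2.67, every Wnt3a array being the higher (0.18, adjusted p 0.365 in limma).

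Of 41 matrix glycoproteins and proteoglycans, 6 rose at the study thresholds (FN1, SPOCK1, POSTN, FBN1, ACAN and NID1), 2 of them at the adjusted threshold, where FBN1 and NID1 joined them with the replicate as a block, and 35 did not pass. Their median was 0.19, with 34 above 0 and 18 with groups apart upward (11.8% of all genes tested were), and it was 0.41 after control siRNA. Of 27 matrix proteases and their partners, 5 rose (MMP2, MMP9, PLAUR, FAP and SCG5) and 22 did not pass. Over all genes tested 0.45% rose at those thresholds and 57.5% were above 0. The protease median was 0.32 (0.19 with spike-in scaling), with 23 above 0 and 14 apart upward, and 0.41 after control siRNA and 0.53 without transfection. With spike-in scaling the median of the glycoproteins and proteoglycans was 0.06, with 25 of the 41 above 0. Of 9 fibrillar collagens, COL5A1 rose and 8 did not pass. Their median was 0.04 but -0.01 with normexp background correction and -0.09 with spike-in scaling. It lay between -0.08 and 0.20 with replicates or single arrays left out. After control siRNA the median was 0.63. The other 24 collagens had 3 rises (COL4A1, COL6A2 and COL13A1) and a median of 0.02 (-0.11 with spike-in scaling), beside 0.19 after control siRNA. Among 12 contractile genes 0 passed in limma, 0 also at an unadjusted p under 0.05, and the median was 0.07 (-0.06 with spike-in scaling) beside 0.29.

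**Figure D4:**
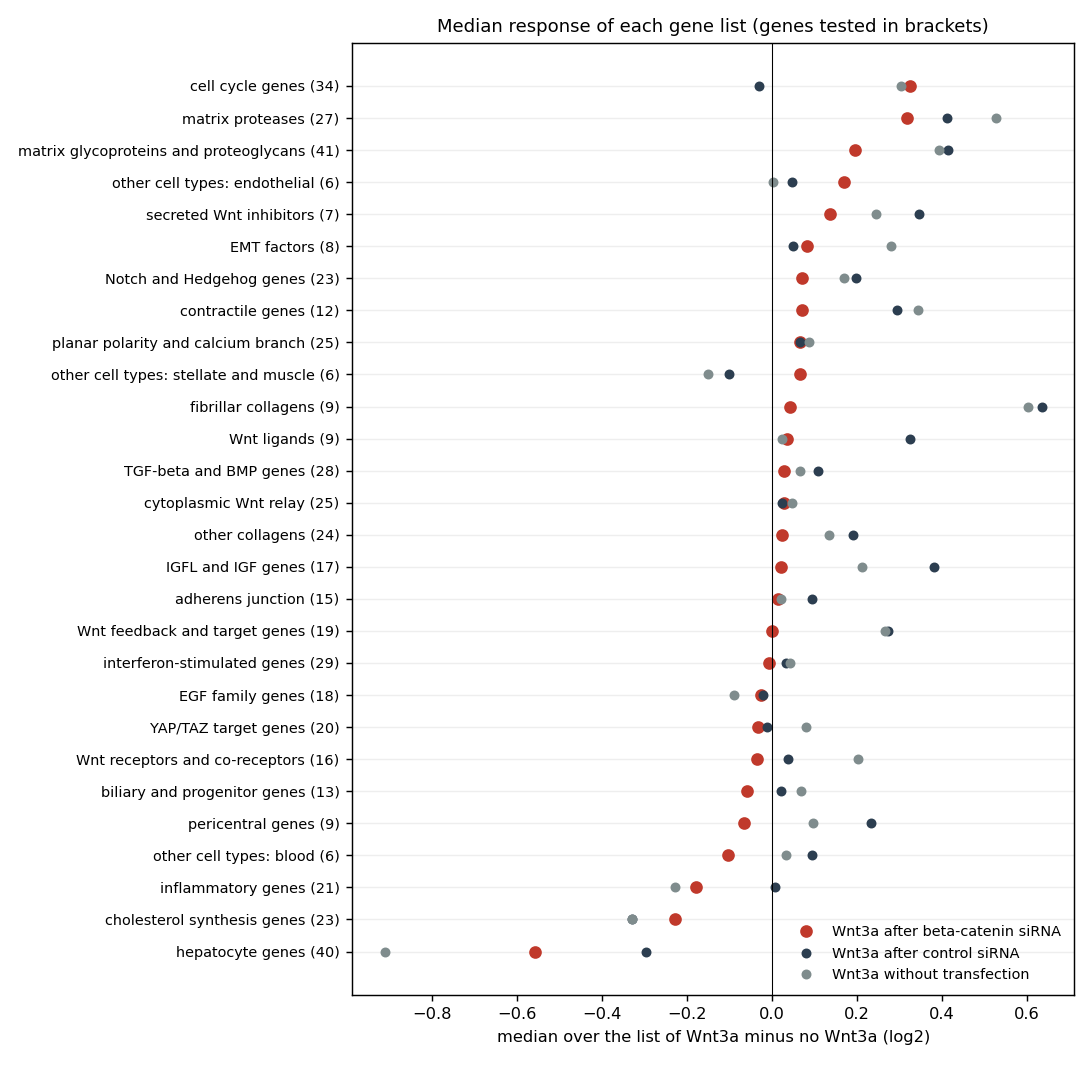
Median log2 difference with Wnt3a of each gene list (genes tested, in the 3 comparisons of 3 against 3 arrays). Fibrillar collagens lie at 0.04 after beta-catenin siRNA and at 0.63 after control siRNA, and hepatocyte genes at -0.56 and -0.30.

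The hepatocyte genes had a median below 0 and no call. Of the 40 tested, 0 passed either threshold in limma and 10 reached an unadjusted p under 0.05 (10.4% of all genes tested did). With Wnt3a 4 were higher (57.5% of all genes tested were), and 5 had groups apart downward, near the share of all genes tested (10.4%). Their median was -0.56, beside 0.03 over all genes, -0.30 after control siRNA and -0.91 without transfection, and it stayed below 0 in every alternative, between -0.78 and -0.23. Taken by same-numbered pair, the medians were -1.22, -0.17 and -0.29, and without transfection they were -1.48, -1.71 and 0.45. In bulk RNA, fewer cells of a type and less RNA per cell cannot be told apart. All 23 genes of cholesterol synthesis were lower, 12 with groups apart (10.4% of all genes tested were, downward). DHCR7 fell at the study thresholds (0.824% of all genes tested did) and 22 did not pass. Their median was -0.23, between -0.36 and -0.16 over the alternatives, beside -0.33 in each of the other two comparisons, and it was -0.48, -0.12 and -0.21 by pair. Of 21 inflammatory genes, IL1B fell (beside the same 0.824%), 20 did not pass and 4 were higher. Their median was -0.18, beside 0.01 after control siRNA and -0.23 without transfection. The median after beta-catenin siRNA lay between -0.35 and -0.08 over the alternatives and was -0.32, -0.09 and -0.18 by pair. After control siRNA the median was -0.12 with quantile normalization and -0.14 with the deposited values. By pair it was -0.03, -0.10 and -0.05 there. With spike-in scaling the medians after beta-catenin siRNA, after control siRNA and without transfection were -0.69, -0.14 and -1.31 for hepatocyte genes, -0.36, -0.17 and -0.72 for cholesterol synthesis and -0.31, 0.17 and -0.62 for inflammatory genes.

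Of 34 cell cycle genes, 33 were higher with Wnt3a (57.5% of all genes tested were), and 18 had groups apart upward (11.8%). CCNE2 and CDC6 rose at the study thresholds (0.45%) and 32 did not pass, though the other CCNE2 probe (0.54) did not pass either. The median was 0.32, between 0.19 and 0.41 over the alternatives, beside -0.03 after control siRNA and 0.30 without transfection. With spike-in scaling the 3 medians were 0.19, 0.13 and -0.09, so the contrast with control siRNA depends on the scaling. By pair it was 0.49, 0.23 and 0.26 after beta-catenin siRNA, -0.11, 0.12 and -0.05 after control siRNA, and 0.46, 0.74 and -0.24 without transfection. The interaction test against control siRNA called 0 of the 34 at an adjusted p under 0.05 in limma and 10 at an unadjusted p under 0.05 (3.34% of all genes tested were), each with the larger difference after beta-catenin siRNA. With spike-in scaling 0 of the 34 were under 0.05 unadjusted in limma, where the median of this test over all genes moved from 0.01 to -0.28.

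**Figure D5:**
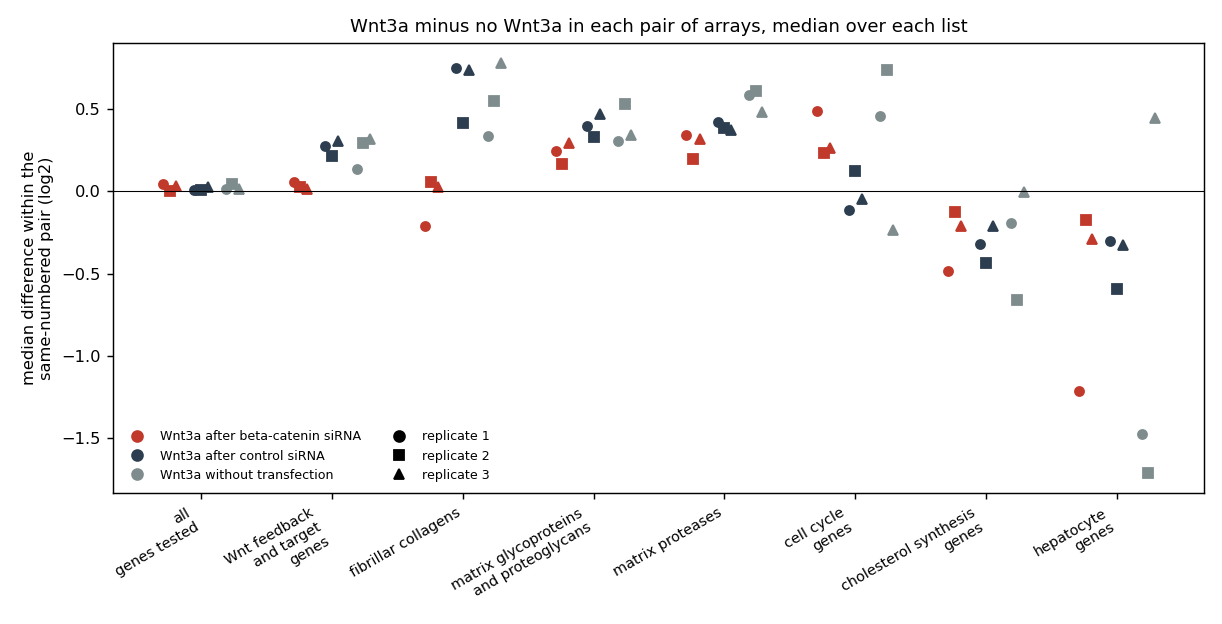
Median log2 difference of chosen gene lists in each same-numbered pair of arrays, by comparison. The cell cycle genes lie at 0.49, 0.23 and 0.26 after beta-catenin siRNA, and the hepatocyte genes at -1.22, -0.17 and -0.29.

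The other lists had medians between -0.10 and 0.17. Over all genes tested, 0.45% rose and 0.824% fell at the study thresholds, and 0.0365% rose at the adjusted one. An unadjusted p under 0.05 in limma was reached by 10.4%. Calls were CDH1 among 15 adherens junction genes (median 0.01), NOG among 28 TGF-beta and BMP genes (0.03), NT5E and NUAK2 in opposite directions among 20 YAP/TAZ targets (-0.03), IGFBP2 among 17 IGFL and IGF genes (0.02), SOX9 and SPP1 among 13 biliary and progenitor genes (-0.06), IFI44L among 29 interferon-stimulated genes (-0.01), NRG2 among 18 EGF family genes (-0.03) and PECAM1 among 6 endothelial genes (0.17). In limma 0 passed of 8 EMT factors (median 0.08, 0 at an unadjusted p under 0.05), 23 Notch and Hedgehog genes (0.07 and 2), 9 pericentral genes (-0.06 and 1), 6 blood genes (-0.10 and 1) and 6 stellate and muscle genes (0.07 and 0).

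Promoters were searched for the TCF/LEF motif, CTTTGAT or CTTTGAA on either strand. It occurred in 577 of 12390 promoters of genes tested (4.66%) and in 1906 of all 27305 promoters of the reference (6.98%). Of the 8 promoters available for the 10 genes past the adjusted threshold, 0 held it. It was in 4 of 55 promoters of genes higher at the study thresholds after beta-catenin siRNA (7.27%) and 13 of 114 of genes lower (11.4%). After control siRNA the shares were 11 of 176 (6.25%) and 16 of 217 (7.37%). These are descriptions of sequence, and binding was not tested. Promoters of MRC2 and SPOCK1 were not in the reference.

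The stretches shown, from GRCh38.p14, are from genes named above whose promoter holds the motif: MYCN and COL13A1, which passed the study thresholds upward after beta-catenin siRNA, TPPP2, which passed them downward, DIRC3, whose response differed between the siRNAs, and IGFL1 and IGFL2, which had large differences in cells without the knockdown. Capitals mark the motif. MYCN is chr2:15940430-15940549 on the + strand, with the motif at -10 from the transcript start. COL13A1 is chr10:69801656-69801775 on the + strand, at -214. TPPP2 is chr14:21030063-21030182 on the + strand, at -94. DIRC3 is chr2:217790574-217790693 on the - strand, at -194. IGFL2 is chr19:46147988-46148107 on the + strand, at -232, and IGFL1 is chr19:46229529-46229648 on the + strand, at -153.

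MYCN: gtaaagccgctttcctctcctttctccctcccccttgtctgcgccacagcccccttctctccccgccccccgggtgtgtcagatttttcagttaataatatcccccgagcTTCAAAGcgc

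COL13A1: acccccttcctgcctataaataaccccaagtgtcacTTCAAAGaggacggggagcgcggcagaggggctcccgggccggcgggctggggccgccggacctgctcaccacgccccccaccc

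TPPP2: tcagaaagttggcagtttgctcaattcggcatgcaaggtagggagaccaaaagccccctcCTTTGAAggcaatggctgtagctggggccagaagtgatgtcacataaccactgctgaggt

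DIRC3: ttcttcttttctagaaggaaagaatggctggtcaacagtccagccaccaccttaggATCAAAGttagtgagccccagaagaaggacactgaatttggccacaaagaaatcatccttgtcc

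IGFL2: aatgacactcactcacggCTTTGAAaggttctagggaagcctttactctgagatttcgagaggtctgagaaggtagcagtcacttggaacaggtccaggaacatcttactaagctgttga

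IGFL1: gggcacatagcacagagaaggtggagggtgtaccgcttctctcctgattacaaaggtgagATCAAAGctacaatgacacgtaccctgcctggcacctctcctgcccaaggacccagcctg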

How the data were processed

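RNA of 24 HepaRG samples was measured on one-colour Agilent arrays, 3 slides of 8 conditions with 3 replicates each. Per the file headers, the scanner software (Agilent Feature Extraction, version 10.7.3.1 in the submitters' notes) wrote the processed signal as an intensity, background-subtracted and detrended, with no normalization between arrays. The deposited value table is log2, scaled by the authors to each array's 75th percentile and centred on each probe, and served as an alternative. The main values are log2 processed signals minus the 75th percentile of their array, with values under -6.13 (1.43% of the 75th percentile) set to that floor. A probe was kept if the scanner software marked it well above background on each of the 3 arrays of some condition, and the brightest probe stood for its gene, which left 24648 genes, 16001 with a symbol. The 6 arrays of the comparison had 58.3% to 63.3% of probes well above background.

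limma 3.58.1 in R 4.3.3 (data.table version 1.17.8) fitted a mean per condition over the 24 arrays with a trended prior, two-sided, with Benjamini-Hochberg adjustment, for Wnt3a within each siRNA and without transfection, and for the differences of those responses. Named genes were CTNNB1 and JUP, and 15 rises and 15 falls with a symbol that moved alike in all 3 same-numbered pairs. Those past the adjusted threshold were taken first, whatever their size, and then the largest past the study thresholds. Named too were list members past either threshold, genes called by an interaction test and the brightest member of a list without a call. The 5 largest rises and falls of the Wnt3a comparisons after control siRNA and without transfection were named as well. The arrays, the 28 gene lists and the rule were chosen with earlier results of these data known. Replicate numbers were checked as a pairing: replicates of the same number were the same slide and correlated in their deviations (82 of 84 pairs of conditions above 0.10). The code was tested on simulated data. Alternatives were quantile normalization, normexp, the deposited table, other filters, floors and probe summaries, the replicate as a block, fits to fewer arrays, leaving out replicates or single arrays, and scaling to the spike-in probes, chosen after seeing the data. Python 3.11.15 and matplotlib 3.10.9 drew figures and searched promoters. Some genes that the rule names are not reported here.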

Additional observations from a re-analysis of the deposited data

Results flagged for a closer look

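Each result here is a gene whose response to Wnt3a after beta-catenin siRNA differed from its response in another setting by the interaction test in limma, at an adjusted p under 0.05. Against control siRNA the difference of responses was 0.67 (log2) for NPTX2 and -1.23 for RNF43. DIRC3 passed too, but it was at the floor on all 3 Wnt3a arrays with beta-catenin siRNA, so its value of -1.61 is no exact size, and it was -0.32 with normexp background correction. Against cells without transfection the difference was 0.74 for NPTX2, -0.89 for NXN, -1.91 for PCSK5, -0.94 for RNF43 and -1.14 for SLC27A2. Those cells differ in transfection too, so transfection and the knockdown cannot be told apart there. PI15 was at the floor on all 6 arrays with beta-catenin siRNA, so its value of -3.05 is the difference in cells without transfection set against the floor, and its response after beta-catenin siRNA was not measured. The 4 transcripts without a gene symbol that passed the latter test had differences of -1.54, -2.00, -1.08 and -1.12. The transcript with -1.54 was at the floor on all 6 arrays too, and that with -2.00 was above background on 2 of 3 arrays without and 1 of 3 with Wnt3a, so the sizes of these 2 depend on the floor. With normexp the 4 values were -0.34, -0.52, -0.58 and -0.56, and that of PI15 was -1.46. Of the genes given here, NPTX2 alone had differences above 0. The causes were not tested.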

How the results depend on the processing

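Of 21 alternatives, 20 were planned and scaling to the spike-in probes was chosen after seeing the data. No value that had passed a threshold changed sign. Of 30 named genes past no threshold, 16 kept their sign in all, and the median of the fibrillar collagens was below 0 in 7 of the 21. All 59 named genes past a threshold kept their direction in each alternative that could be fitted, and 3 (POSTN, S100P and MMP2) kept their call in all. Leaving out arrays cannot change a sign where groups are apart, so the kept direction adds little. CTNNB1 with Wnt3a, at -3.02 against control siRNA, kept its call throughout.

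The 10 genes at an adjusted p under 0.05 in limma became 4 with normexp correction, 6 with marked spots kept, 3 with only the arrays compared, 0 with only those arrays and no moderation together (limma, 3657 at an unadjusted p under 0.05) and 0 with spike-in scaling (700 at an unadjusted p under 0.05). Leaving out replicates or single arrays gave 0 to 96. The calls were not always the same genes. All 4 with normexp and all 6 with marked spots kept were among the 10. With only the arrays compared 1 of the 3 was, and with quantile normalization 5 of 7 were. The 314 genes at the study thresholds became 181 with normexp and 189 with spike-in scaling, and 85 to 477 when replicates or arrays were left out. Their split of 111 higher and 203 lower became 85 and 244 with quantile normalization, 37 and 144 with normexp, 27 and 162 with spike-in scaling, and 54 and 31 without replicate 1 of every condition. That scaling moved the median difference of all genes from 0.03 to -0.10.

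The 4 interaction calls against control siRNA became 1 with normexp, 7 with the mean of probes, 41 with only the arrays compared, 26 with only those arrays and no moderation together, 0 with spike-in scaling (limma, 448 at an unadjusted p under 0.05) and 0 to 11 with arrays left out. The 11 against no transfection became 7 with normexp, 20 with no filter on dim probes, 7 with a floor of 1 intensity unit, 5 with only the arrays compared, 0 with only those arrays and no moderation together (limma, 838 at an unadjusted p under 0.05), 0 with spike-in scaling (limma, 305 at an unadjusted p under 0.05) and 0 to 13 with arrays left out. With the replicate as a block, the pairing by slide, the calls were 46 for Wnt3a after beta-catenin siRNA, with the 10 among them, and 10 and 20 for the interaction tests. The cause was not tested for any of these changes.

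Of the 28 list medians, 22 moved by less than the median standard deviation of single genes between replicates (0.13) in all alternatives. That spread is wide for a median over many genes, so the count does not show that the medians were stable. With spike-in scaling that of the matrix glycoproteins and proteoglycans, among the 22, went from 0.19 to 0.06. Signal over background limits the dimmest genes, whose fold changes end at the floor.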

Other observations

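With the replicate as a block, which follows the pairing of arrays by slide, limma called 46 genes for Wnt3a after beta-catenin siRNA, 30 higher and 16 lower. Chosen after their values were seen, MT1L (0.41), MB (-1.15), LY6D (-1.22), NALCN (-0.99), WWC1 (-0.89) and HK2 (-0.78) were among them. The spike-in probes, RNA added in equal amounts, differed by 0.13 with Wnt3a after beta-catenin siRNA, by -0.16 after control siRNA and by 0.40 without transfection.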
